A study of Homo sapiens with 8 samples.

Results

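The genes described are 10 of lipoprotein structure and assembly, listed by symbol: APOA1, APOA2, APOB, APOC1, APOC3, APOE, APOH, APOM, MTTP and TM6SF2. Their measured values were not the rule of choice, but earlier results of the same counts were known when the choice was made. All 10 were present among the 24462 genes counted, and all 10 passed the filter on low counts, which left 12577 genes for testing. The cells were HepG2, an established human liver cancer line, grown in DMEM with serum and antibiotics and given no other treatment. One group was labelled mock and the other carried EDN1 overexpression (EDN1 O/E), EDN1 being the gene of the vasoconstrictor peptide endothelin-1, with 4 libraries in each group. The labels give neither the vector, the promoter nor whether a group is 1 clone, and they name no separate cultures behind the libraries, so a p-value reflects the spread of these libraries alone, which may be technical. RNA was sequenced with QuantSeq, a method that counts tags near the 3′ end of polyadenylated transcripts.

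Lipoproteins carry triglyceride and cholesterol through plasma. In hepatocytes the protein of APOB is lipidated while it is being made by the microsomal triglyceride transfer protein, the product of MTTP, and TM6SF2 is a membrane protein known for its part in loading the particle with lipid. The smaller apolipoproteins, such as those of APOA1, APOA2, APOC1, APOC3 and APOE, exchange between particles, with APOA1 the main protein of high density lipoprotein, and HepG2 is a common model because it secretes lipoproteins.

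Total counts ranged from 8409173 to 14932385 per library. EDN1 had 9 to 29 counts in the mock libraries and 2284 to 4764 in EDN1 overexpression, so each library matched its label for this gene, with a log2 fold change of 7.92 (SE 0.41). Introduced and endogenous EDN1 messages are not separated in these counts. The libraries also fell into sets that no label names and that earlier results of the same counts had shown. Mock 4, EDN1 3 and EDN1 4, called the second library set here, had 35.8 to 57.2 CPM of CDK4, a cell cycle kinase gene, against 211 to 322 CPM in the other 5 libraries, the first library set. CPM is the usual depth-scaled count, here on library sizes scaled by TMM, except that summed levels of gene lists used plain library totals. All 10 hepatocyte markers examined, among them ALB and TTR, passed the filter. Lists of other cell types were partly expressed. Of 6 biliary markers 4 passed the filter (KRT19, EPCAM, SOX9 and SPP1), and the list summed to 848 to 998 CPM in mock and 841 to 1218 CPM in EDN1 overexpression, while CFTR had 0 counts in all libraries and KRT7 at most 4. Of 8 blood and endothelial markers 3 passed, and the list summed to 414 to 763 CPM and 380 to 772 CPM, with LYZ at 4193 to 9943 counts per library, CD68 at 60 to 164 and PTPRC at most 1. Of 8 fibroblast and stellate markers 3 passed, with LUM and THY1 at 0 counts in all libraries.

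For 5 members, chosen to represent the different patterns of level described below, the 100 bases before the transcript start are shown. The sequences are from RefSeq on GRCh38.p14, whereas the counts were made on hg19. Entries existed for 7 of the 10 members (APOA2, APOC1, APOE, APOH, APOM, MTTP and TM6SF2). Each runs 5′ to 3′ on the strand of the gene, ends at the base before the start, and has in capitals the matches to 6 short motifs.
APOC1, chr19:44914572-44914671, plus strand: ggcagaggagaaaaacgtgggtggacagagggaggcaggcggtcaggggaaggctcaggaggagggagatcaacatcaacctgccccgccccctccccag
APOA2, chr1:161223629-161223728, minus strand: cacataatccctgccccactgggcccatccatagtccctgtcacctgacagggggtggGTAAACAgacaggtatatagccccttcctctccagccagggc
APOH, chr17:66229416-66229515, minus strand: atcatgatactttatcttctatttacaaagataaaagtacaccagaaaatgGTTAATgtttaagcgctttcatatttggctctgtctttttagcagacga
APOM, chr6:31655794-31655893, plus strand: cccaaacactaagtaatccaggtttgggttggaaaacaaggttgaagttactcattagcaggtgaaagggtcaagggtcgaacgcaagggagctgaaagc
MTTP, chr4:99574724-99574823, plus strand, the downstream of its listed starts: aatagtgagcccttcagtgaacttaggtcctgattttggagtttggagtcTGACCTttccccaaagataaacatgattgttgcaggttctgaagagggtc
The motifs were searched on both strands. They were CAAAGTCCA for HNF4, GTTAAT for HNF1, AGGTCA for nuclear receptors, TATAAA for the TATA box, TCACNCCAC for a sterol element and TGTTTAC for forkhead factors. APOA2 held the forkhead letters on the minus strand, 42 to 36 bases before its start, as did 1.13% of all 35116 promoter windows of this length. APOH held the HNF1 letters 49 to 44 bases before its start, found in 2.2% of the windows, and MTTP the nuclear receptor letters on the minus strand 50 to 45 bases before its start, found in 5.21%. No matches overlapped each other. APOC1 and APOM held none of these letters in this window. Nor did the windows not shown, those of APOE, TM6SF2 and the upstream start of MTTP, out of 10 windows for the 7 members. A match is a description of the sequence, not evidence of binding.

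The comparison asked whether EDN1 overexpression changed the messages of lipoprotein assembly. No difference between the groups was detected for any of the 10 genes. After Benjamini-Hochberg adjustment over all tested genes, the quasi-likelihood test of edgeR called 0 of 10, against 0.00795% of the 12577 genes. That share is 1 gene, the overexpressed EDN1 itself. At an unadjusted p under 0.05 the count was also 0 of 10, against 2.85% of all tested genes. DESeq2 and limma voom each called 0 of 10, against backgrounds of 0.0239% and 0.00795%, which include EDN1. For 0 of 10 were the 4 libraries of one group clear of the 4 of the other, which was so for 2.04% of all tested genes. Fold changes were negative for 7 members and positive for 3, with a median log2 fold change of -0.12 beside 0.00099 over all tested genes. In bulk RNA, fewer cells with a message and less message per cell cannot be told apart. The plot of levels by library shows the overlap of the groups gene by gene.

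**Figure D1:**
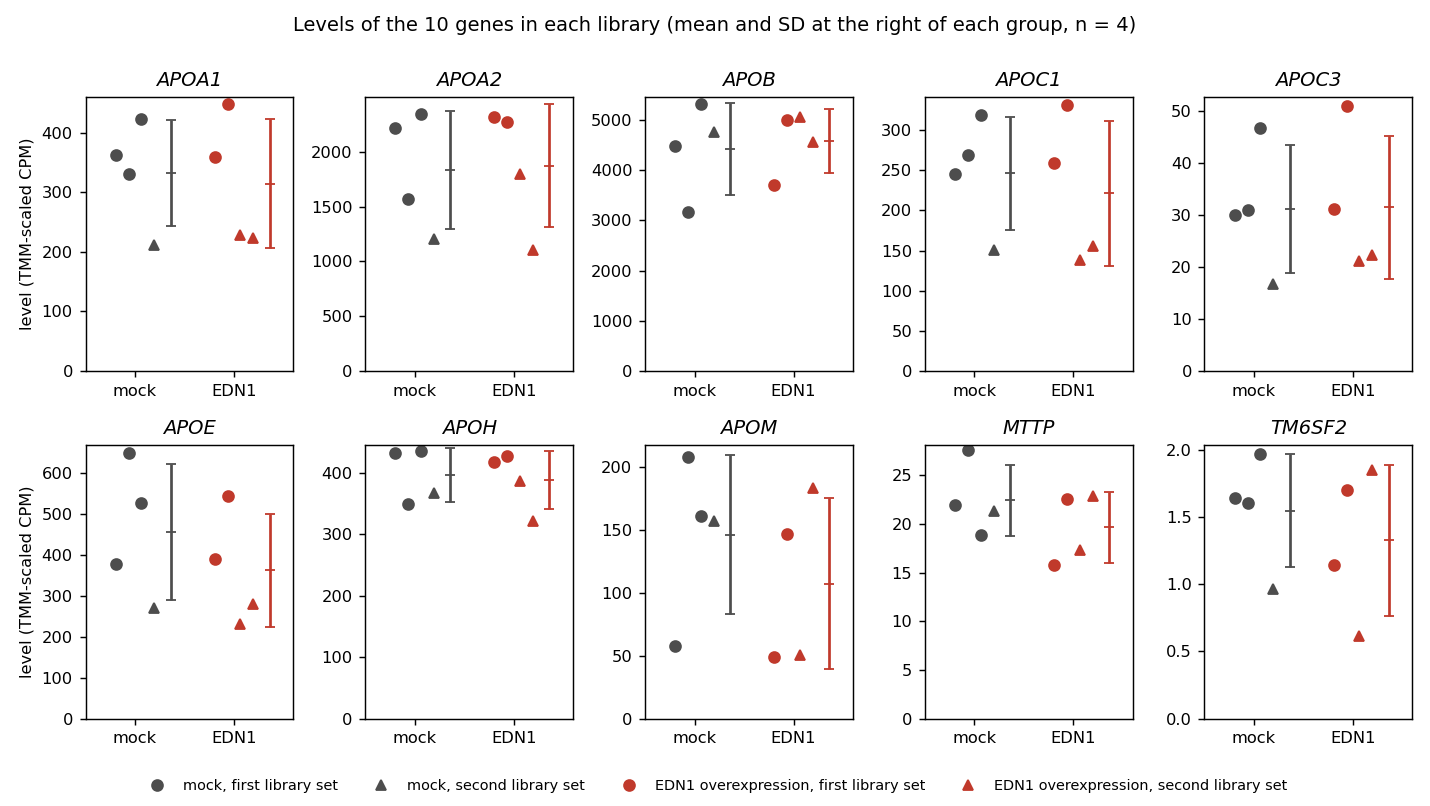
Level of each of the 10 genes in TMM-scaled CPM (vertical axis, from 0) in the 4 mock (grey) and 4 EDN1 overexpression (red) libraries, with circles for the first library set, triangles for the second, and mean and SD (n = 4) at the right of each group. The groups overlap for every gene, the triangles lie below all circles for APOA1, APOC1, APOC3 and APOE, and APOM has 3 low libraries, 1 mock and 2 of EDN1 overexpression.

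The structural protein of the particle came first. APOB, the non-exchangeable protein of very low and low density lipoprotein, stood at 4479, 3159, 5312 and 4764 CPM in mock 1 to 4, and at 3694, 5002, 5052 and 4562 CPM in EDN1 1 to 4. Mock 2 was the lowest library and mock 3 the highest, and all 4 EDN1 libraries lay between them. The means were 4428 ± 914 and 4578 ± 628 CPM (SD, n = 4 each), a log2 fold change of 0.05 (SE 0.20, 95% interval from -0.39 to 0.48). In linear terms the interval reached from 0.764-fold to 1.4-fold. The value was -0.09 without mock 2 and 0.15 without mock 3.

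MTTP, the lipid transfer partner of APOB, had 163 to 308 counts per library. Its levels were 21.9, 27.5, 18.9 and 21.3 CPM in mock 1 to 4 and 15.8, 22.6, 17.3 and 22.9 CPM in EDN1 1 to 4. EDN1 1 and EDN1 3 were the lowest of all 8 and lay below every mock library, whereas EDN1 2 and EDN1 4 lay within the mock range. The log2 fold change was -0.19 (SE 0.19, 95% interval from -0.61 to 0.22), which was -0.08 without mock 2, the library with the highest level. The count of MTTP relative to that of APOB in the same library, a ratio free of scaling, ran from 0.00342 in EDN1 3 to 0.00872 in mock 2. The other 6 libraries lay between 0.00356 and 0.00501 in both groups, so mock 2 alone stood apart in this ratio, with the highest MTTP and the lowest APOB level. P4HB, which encodes protein disulfide isomerase, the other subunit of the transfer protein, had a mean of 713 ± 150 CPM in mock libraries and of 664 ± 140 CPM in EDN1 libraries (SD, n = 4).

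TM6SF2 was near the limit of what these libraries could measure, with 21, 13, 17 and 14 counts in the mock libraries and 14, 15, 7 and 16 in those with EDN1 overexpression. EDN1 3 was the lowest library, and the others overlapped. The log2 fold change was -0.23 (SE 0.40, 95% interval from -1.10 to 0.65) and became 0.02 without EDN1 3. In linear terms the interval reached down to 0.465-fold.

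Of the exchangeable apolipoproteins, APOA1, APOC1, APOC3 and APOE had library sets that did not overlap and groups that did. APOA1 stood at 363, 331, 422 and 212 CPM in mock 1 to 4, and at 359, 447, 229 and 223 CPM in EDN1 1 to 4. The 3 libraries of the second set, 1 of mock and 2 of EDN1 overexpression, held 212 to 229 CPM and the 5 of the first set 331 to 447 CPM. Over all libraries the log2 fold change was -0.08 (SE 0.27, 95% interval from -0.68 to 0.52). It was 0.11 (SE 0.19) in the first set and 0.08 (SE 0.42) in the second, where the lone mock library is assumed to vary like the EDN1 libraries.

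APOC1, which encodes a small inhibitor of lipoprotein uptake and lipid transfer, followed the same division. Its levels were 245, 269, 319 and 151 CPM in mock 1 to 4 and 258, 331, 139 and 156 CPM in EDN1 1 to 4. The sets did not overlap, while the groups did almost completely. Its log2 fold change was -0.15 (SE 0.30) over all libraries, 0.09 (SE 0.19) in the first set and -0.04 (SE 0.40) in the second.

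APOC3, an inhibitor of lipoprotein lipase whose gene neighbours APOA1, had 29.97, 31.0, 46.7 and 16.8 CPM in mock 1 to 4 and 31.2, 50.9, 21.2 and 22.4 CPM in EDN1 1 to 4. Mock 3 and EDN1 2 were the high libraries, and the 3 of the second set were the low ones. The log2 fold change was 0.02 (SE 0.34), with 0.19 (SE 0.27) in the first set and 0.37 (SE 0.44) in the second. It was -0.31 without EDN1 2 and 0.28 without mock 3, so its sign rested on single libraries.

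APOE, the ligand of the LDL receptor on remnant particles, whose gene neighbours APOC1, had 376, 648, 526 and 270 CPM in mock 1 to 4 and 390, 543, 232 and 280 CPM in EDN1 1 to 4. Mock 2 was the highest library and EDN1 3 the lowest, and the second set again lay below the first. The means were 455 ± 166 and 362 ± 138 CPM (SD, n = 4 each), a log2 fold change of -0.33 (SE 0.31, 95% interval from -1.03 to 0.36). It was -0.15 (SE 0.26) in the first set and -0.09 (SE 0.43) in the second, -0.11 without mock 2 and -0.60 without EDN1 2.

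APOA2, the second protein of high density lipoprotein, differed less cleanly between the sets. It stood at 2215, 1574, 2343 and 1206 CPM in mock 1 to 4, and at 2314, 2269, 1797 and 1107 CPM in EDN1 1 to 4. EDN1 3, of the second set, lay above mock 2, of the first, so the sets overlapped. The log2 fold change was 0.03 (SE 0.28, 95% interval from -0.58 to 0.64), and it ranged from -0.13 without mock 4 to 0.21 without EDN1 4.

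Between the sets, APOA1, APOC1, APOC3 and APOE differed on the log2 scale by -0.80, -0.94, -0.91 and -0.93 (second set minus first). These values are a description, since the sets came from the same counts. Of the 10 members, 4 had a second set wholly below the first, as had 13.4% of all tested genes, and 0 had one wholly above, against 9.83%. The sets accounted for 89.6% of the variance of log2 CPM of APOA1, 90.9% for APOC1, 69.7% for APOC3 and 75.8% for APOE. These genes were named because their sets did not overlap, so a high share followed from that choice. Among the other members the share ran from 0.226% for APOM to 61.7% for APOA2, and the median over all tested genes was 24.7%. The groups accounted for 1.5% of the variance for APOA1, 4.24% for APOC1, 0.0167% for APOC3 and 10.9% for APOE. ACTA2, the smooth muscle actin gene of the fibroblast and stellate list, lay apart in the same way. It had at most 38.6 CPM in the second set and at least 163 CPM in the first. The summed level of that list's 8 genes, most of it ACTA2, was at most 44.3 CPM and at least 170 CPM. Of the 3 tested genes of the list only ACTA2 lay apart, and the sets overlapped for COL1A1 and PDGFRB. Of that list 5 genes had at most 10 counts in any library, LUM and THY1 among them at 0. Of 10 hepatocyte markers, 3 (30%) were wholly lower in the second set (SERPINA1, TF and RBP4) and 0 wholly higher. For the other markers the sets overlapped. Their means were higher in the second set, by 0.0069 (FGA) to 0.64 (AFP) on the log2 scale. The part of these in the result was not tested. Nor was it tested what the sets stand for, and the groups are split unequally over them, 3 mock and 2 EDN1 libraries against 1 and 2.

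**Figure D2:**
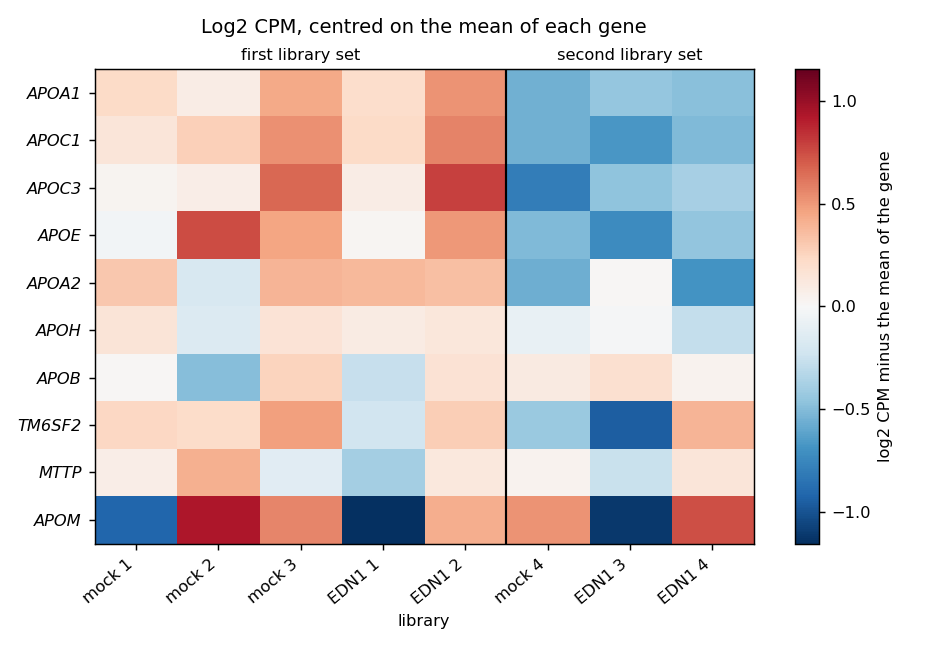
Log2 CPM of each gene minus its mean over the 8 libraries (colour), with libraries in columns ordered by library set and genes in rows. APOA1, APOC1, APOC3 and APOE are low in all 3 libraries of the second set, while APOM is low in mock 1, EDN1 1 and EDN1 3 in either set.

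Proportions within a library varied less for some of these genes than for others. The ratio of APOC1 to APOA1 counts, which does not depend on scaling, ran from 0.606 in EDN1 3 to 0.812 in mock 2, 1.34-fold, while the APOA1 level itself spanned 2.11-fold. APOC3 to APOA1 spanned 1.44-fold and APOE to APOC1 1.59-fold. APOE to APOA1 spanned more, 1.93-fold, from 1.01 in EDN1 3 to 1.96 in mock 2. APOA1 relative to APOB spanned 2.35-fold, from 0.0445 in mock 4 to 0.105 in mock 2. It was 0.0445 to 0.0489 in the second set and 0.0795 to 0.105 in the first, with no overlap. The ratio of APOM to APOA1 spanned 6.01-fold, from 0.136 in EDN1 1 to 0.82 in EDN1 4.

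**Figure D3:**
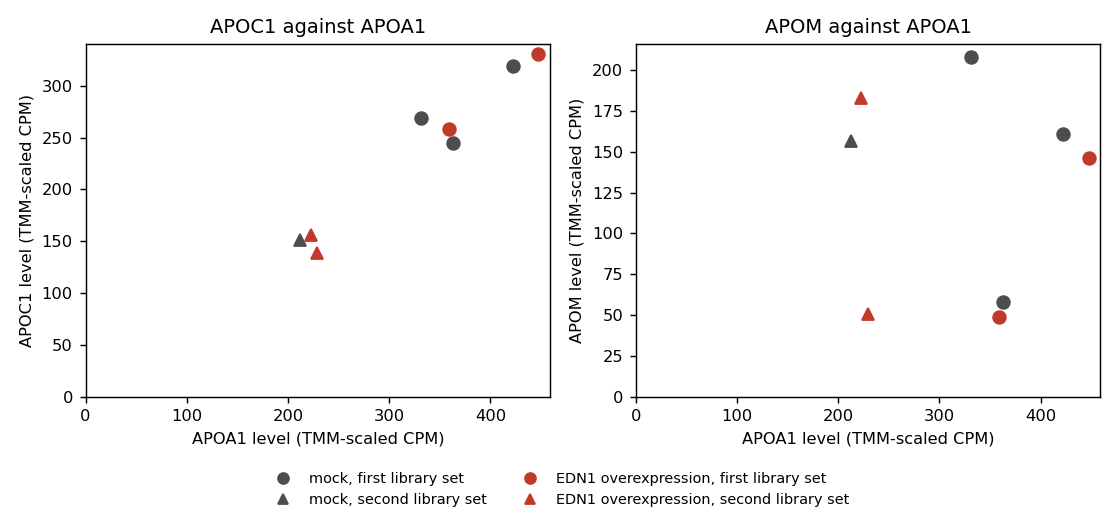
Levels of APOC1 (left) and APOM (right) against that of APOA1, all in TMM-scaled CPM on axes from 0, with 1 point per library, colour for the group and shape for the library set. APOC1 lies close to a line through the origin, with ratios of 0.606 to 0.812, whereas APOM takes values near 50 or above 146 CPM at either APOA1 level.

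Among the remaining members, APOH had the narrowest spread and APOM the widest. APOH encodes beta-2-glycoprotein I, a phospholipid-binding plasma protein. Its levels were 431, 350, 435 and 368 CPM in mock 1 to 4 and 418, 427, 387 and 322 CPM in EDN1 1 to 4. The highest library exceeded the lowest by 1.35-fold, and both groups covered nearly the same range. Its log2 fold change of -0.03 (SE 0.15) had the narrowest 95% interval of the 10, -0.36 to 0.31, or 0.779-fold to 1.24-fold. The count of APOA2 relative to APOH was 3.28 in mock 4 and 3.44 in EDN1 4, and 4.504 to 5.54 in the other libraries, EDN1 3 included.

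APOM encodes a lipocalin of high density lipoprotein that carries sphingosine-1-phosphate. It stood at 57.8, 208, 161 and 157 CPM in mock 1 to 4, and at 48.9, 146, 50.4 and 183 CPM in EDN1 1 to 4. Mock 1, EDN1 1 and EDN1 3 formed a low level of 48.9 to 57.8 CPM and the other 5 libraries a high one of 146 to 208 CPM, with nothing between. The low libraries came from both groups and both library sets, and the sets accounted for only 0.226% of the variance of its log2 CPM. The counts behind these levels were 575 to 741 in the low libraries and 1290 to 2266 in the others. The means were 146 ± 63.1 and 107 ± 68.0 CPM (SD, n = 4 each), a log2 fold change of -0.45 (SE 0.48, 95% interval from -1.51 to 0.61), with -0.54 (SE 0.55) in the first set and -0.43 (SE 0.46) in the second. It was -0.83 without EDN1 4 and -0.21 without EDN1 1. The same 3 libraries were the lowest for 5 of 10 hepatocyte markers, against 5.56% of all tested genes. The albumin gene ALB was one, with 344 to 366 CPM there and 543 to 882 CPM in the other 5 libraries. The summed level of the 10 markers ran from 4920 to 7816 CPM in mock and from 4092 to 8553 CPM in EDN1 overexpression, and its part in the APOM result was not tested. APOM filled 7 rows of the table, of which 6 held 0 counts in all libraries and were added to the first.

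Some members overlap a gene on the other strand, and whether the counting used strand is not given in the sources used here. APOM overlaps BAG6 in GENCODE 29. BAG6 had 133, 212, 178 and 63.2 CPM in mock 1 to 4 and 140, 170, 48.2 and 67.0 CPM in EDN1 1 to 4, low in the second set and so unlike APOM in mock 1, mock 4, EDN1 1 and EDN1 4. APOA1 overlaps APOA1-AS, which had 47 to 127 counts per library against 1930 to 4651 for APOA1. MTTP overlaps TRMT10A, which had 59 to 138 counts against 163 to 308 for MTTP. Also on the other strand, APOB overlaps AC010872.1 and MTTP overlaps AC083902.1. On the same strand, APOC1 and APOE overlap AC011481.3, and TM6SF2 overlaps AC138430.1. None of these was among the genes counted, and their part in the member counts was not tested.

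With the library set as a second term, the intervals of the genes that followed the sets became narrower and still included 0. The sets came from the same counts, and APOA1, APOC1, APOC3 and APOE were named because their sets did not overlap. Their narrowing followed from that choice, and intervals fitted with this term may be too narrow. The 95% interval of APOA1 became -0.18 to 0.39 around 0.11, 0.482 times as wide as before, and that of APOC1 -0.26 to 0.35 around 0.04, 0.453 times as wide. APOE became -0.12 (95% interval -0.54 to 0.30), APOC3 0.26 (-0.20 to 0.71) and APOA2 0.20 (-0.22 to 0.63). On the linear scale these intervals reached from 0.686-fold for APOE to 1.64-fold for APOC3 at their outer ends. The interval of APOB, around 0.01, was 0.954 times as wide as before, and those of MTTP, around -0.19, and APOM, around -0.50, were 1.003 and 1.07 times as wide. The adjusted p of each member (edgeR, Benjamini-Hochberg) was 0.9999 with the group alone, and the lowest over the alternatives run was 0.890, for APOM without EDN1 4.

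**Figure D4:**
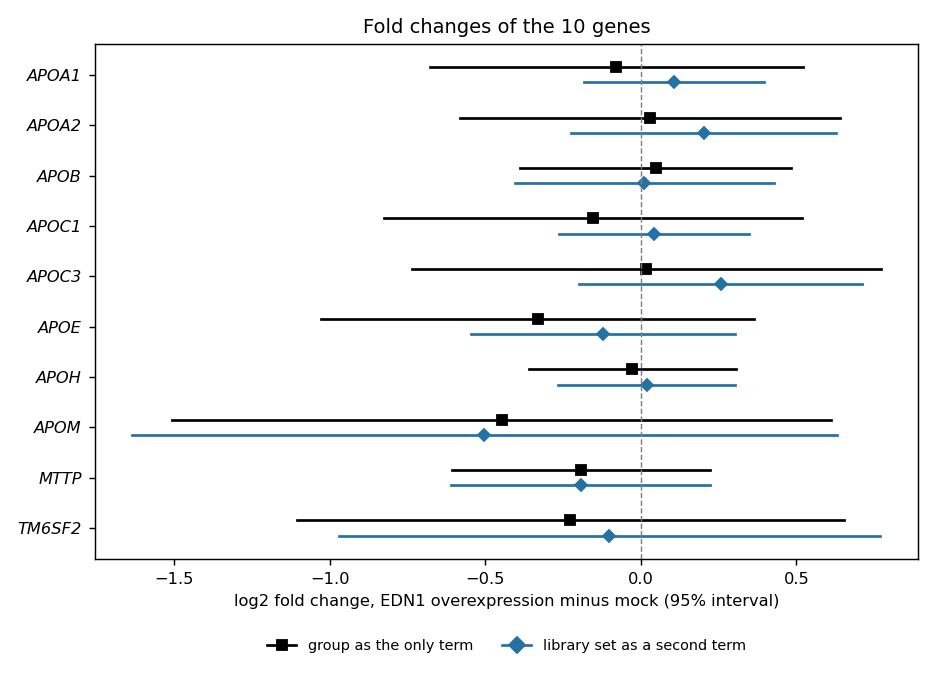
Log2 fold change of each gene, EDN1 overexpression minus mock (horizontal axis), with 95% intervals, fitted with the group alone (black squares) or with the library set as a second term (blue diamonds). Every interval includes 0 in both fits. Those of APOA1 and APOC1 are 0.482 and 0.453 times as wide with the set as a term. This narrowing follows from the choice of sets and genes. The interval of APOM is widest.

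The wider pathway was read from lists of related genes. Of 17 other apolipoprotein and particle genes, 14 passed the filter, with 7 positive and 7 negative fold changes and a median of 0.02, and edgeR, DESeq2 and limma voom each called 0. APOA5 alone had an unadjusted p under 0.05 and was higher, as did 2.03% of all tested genes. APOA5, an activator of plasma triglyceride clearance whose gene lies in the cluster of APOA1 and APOC3, had 13.2, 21.0, 16.3 and 17.1 CPM in mock 1 to 4 and 22.1, 34.8, 22.9 and 25.4 CPM in EDN1 1 to 4. Every EDN1 library lay above every mock library, as for 1.38% of all tested genes. The log2 fold change was 0.64 (SE 0.20, 95% interval from 0.19 to 1.09). Its unadjusted p was 0.00982 and its adjusted p 0.9999 (edgeR), so it did not pass. The log2 fold change was 0.76 (SE 0.27) in the first set and 0.49 (SE 0.43) in the second, which holds 1 mock library. It was 0.48 to 0.76 on leaving out each library. These fits share libraries, and APOA5 was the gene of smallest p in its list. Next by p in this list were APOL2, at 0.49 (SE 0.25) on the log2 scale, and APOL6, at -0.31 (SE 0.18).

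For lipoprotein assembly and secretion, all 20 genes passed the filter, with 9 positive and 11 negative fold changes and a median of -0.03. The 3 methods each called 0 of 20, and at an unadjusted p under 0.05 the count was 0. The log2 fold changes lay between -0.23 for A1CF, a cofactor of APOB mRNA editing, and 0.25 for PDIA4, an endoplasmic reticulum disulfide isomerase. SURF4, a cargo receptor for export of lipoproteins from the endoplasmic reticulum, also had 0.25 (SE 0.16).

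Of 13 genes for enzymes and transfer proteins that remodel the particle in plasma, 8 passed the filter, with 5 positive and 3 negative fold changes and a median of 0.25. Each method called 0. At an unadjusted p under 0.05 (edgeR) the count was 1 of 8, higher, against 2.03% of all tested genes. On the log2 scale PLTP, the phospholipid transfer protein gene, stood at 0.31 (SE 0.19) and BMP1, a protease gene, at 0.26 (SE 0.23).

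Receptors and efflux transporters gave 0 calls by any of the methods in 14 tested genes of 16, and 0 at an unadjusted p under 0.05, with 5 positive and 9 negative fold changes and a median of -0.06. On the log2 scale SDC1, a heparan sulfate proteoglycan gene, stood at 0.25 (SE 0.14), VLDLR, a receptor gene, at -0.59 (SE 0.36), and ABCG5, a sterol transporter gene, at -0.23 (SE 0.18).

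Regulators of apolipoprotein transcription numbered 24, all tested, with 10 positive and 14 negative fold changes and a median of -0.03. By each method 0 were called. At an unadjusted p under 0.05 (edgeR) the count was 2 of 24, both higher, against 2.03% of all tested genes. HNF4A, a nuclear receptor known to drive many apolipoprotein promoters, had a mean of 158 ± 20.5 CPM in mock libraries and of 169 ± 14.6 CPM in EDN1 libraries (SD, n = 4), a log2 difference of 0.09 (SE 0.14). NR2F2, a nuclear receptor known to repress apolipoprotein promoters, had 36.3, 31.1, 29.2 and 39.7 CPM in mock 1 to 4 and 51.6, 39.1, 68.0 and 43.9 CPM in EDN1 1 to 4, where EDN1 2 fell just below mock 4. Its log2 fold change was 0.57 (SE 0.20), and 0.40 without EDN1 3. It was 0.49 (SE 0.19) in the first set and 0.48 (SE 0.41) in the second. Its unadjusted p was 0.0145 and its adjusted p 0.9999 (edgeR). NR1H2, which encodes the liver X receptor beta, had a log2 fold change of -0.44 (SE 0.27).

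Likeness of pattern was measured for APOA1, APOB and MTTP by Pearson's r of log2 CPM over the 8 libraries, among 8688 other genes with a mean of at least 10 CPM. The genes nearest to APOA1 were ITPKC (r = 0.989), AKT1 (0.986) and CHCHD10 (0.984). Those nearest to APOB were COQ7 (0.986), RBM3 (0.977) and MESDC1 (0.946), and those nearest to MTTP were ZNF277 (0.942), RPL23A (0.939) and ATXN2L (0.937). These are the highest of many values over 8 points that share libraries and library sets, and are given as a description. Like APOA1, its nearest gene ITPKC was low in the second set, with 8.20 to 8.77 CPM against 11.9 to 16.0 CPM in the first.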

How the data were processed

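Libraries were 4 of mock and 4 of EDN1 overexpression in HepG2, prepared with the QuantSeq kit of Lexogen (labels' protocols). The authors deposited raw counts per gene, with a gene length that was not used. The submitters' processing notes name Bowtie2, edgeR and hg19. For the counting tool and strand setting, nothing is given in the sources used here. Titles gave the groups and replicate numbers.

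Rows sharing a symbol were summed (25737 rows, 288 repeated symbols), other than MARCH1 and MARCH2, leaving 24462 genes. After filterByExpr (minimum count 10) and TMM, 12577 genes entered the quasi-likelihood test in edgeR 4.0.16 (R 4.3.3), which had group as its single covariate, and p-values were adjusted by Benjamini-Hochberg at 0.05. The SE is the log2 fold change over the root of F, and intervals cover 95%. Log2 CPM used a prior count of 2. The script was tested on simulated data in which genes were changed by a known fold. It called 4 of 50 genes changed 1.5-fold, 20 of 50 changed 2-fold, 46 of 50 changed 4-fold and 50 of 50 changed 8-fold. There were 10 false calls. All library pairs differed beyond sampling noise, with a chi-square over its degrees of freedom of 6.38 to 93.2. Totals of 8409173 to 14932385 counts set the precision.

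The members, the lists and the library sets were chosen with earlier results of these data known. Named genes are the members, EDN1, the 3 genes of smallest p in each pathway list and the 3 nearest to APOA1, APOB and MTTP. Some genes this rule names are not reported here. CDK4, HNF4A, P4HB, the markers named, the overlapping genes and all genes under "Other observations" were added after values were seen. Alternatives were other scalings and filters, DESeq2 1.42.0, limma voom (limma 3.58.1), the replicate number as a block, the library sets, deposited rows and leaving out each library.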

Additional observations from a re-analysis of the deposited data

Results flagged for a closer look

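Among 52 groups of 4 libraries examined for a single distant library, 2 held one, and chance flags about 1 in 20 such groups. BMP1 had 4.82 CPM in EDN1 3 and 6.51 to 6.70 CPM in the other EDN1 overexpression libraries. NR1H2 had 10.85 CPM in mock 4 and 14.2 to 14.8 CPM in the other mock libraries.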

How the results depend on the processing

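No member was called under any alternative run, and with 1 library left out 0 of 10 had groups that did not overlap, against 2.81% to 6.53% of all tested genes. That overlap was not counted for the library sets, the block, DESeq2 or voom. Over all genes 1 gene was called higher and 0 lower under every alternative run other than DESeq2, which called 2 higher and 1 lower. The 1 gene was EDN1, which DESeq2 also called. The signs of small member fold changes were not stable. With the library set as a term they turned for APOA1 (0.11), APOC1 (0.0427) and APOH (0.0188), in the first set alone for APOA1 (0.11), APOC1 (0.0852) and APOH (0.0583), in the second set alone for APOA1 (0.0797) and TM6SF2 (0.30), and with library totals for APOH (0.0109). The cause was not tested. Leaving out each library gave ranges of -0.30 to 0.0583 for APOA1, -0.13 to 0.21 for APOA2, -0.0853 to 0.15 for APOB, -0.41 to 0.0153 for APOC1, -0.31 to 0.28 for APOC3, -0.0843 to 0.0518 for APOH and -0.425 to 0.021 for TM6SF2. APOE, APOM and MTTP stayed negative throughout.

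With the replicate number as a block, edgeR called 1 gene higher, EDN1, and 0 lower, and APOM had a log2 fold change of -0.54. The unadjusted p of APOM (edgeR) was 0.0655 with the block and 0.372 without, and its adjusted p with the block was 0.954. With the block, 0 members had an unadjusted p under 0.05 (edgeR). Same-numbered libraries deviated together with correlations of 0.48, 0.15, -0.15 and 0.53, and differently numbered ones with -0.65 to 0.52. Whether the numbers mark a pairing was not tested. Of the members TM6SF2 had the fewest counts, 7 to 21 per library.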

Other observations

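The 3 libraries with the lowest APOM level, mock 1, EDN1 1 and EDN1 3, were also the 3 lowest for 699 of the 12577 tested genes, among them the hepatocyte markers FGA, FGB, AMBP and AHSG besides ALB. AHSG, the gene of the plasma protein fetuin-A, had 1791, 1501 and 2126 CPM in these libraries and 2788 to 5063 CPM in the other 5. PPARGC1A, a transcriptional coactivator gene of hepatic metabolism, had 5.46, 5.86 and 8.07 CPM against 12.0 to 21.9 CPM. ANGPTL4, a lipoprotein lipase inhibitor gene, had 3.43, 5.21 and 5.44 CPM against 5.79 to 24.6 CPM. Of the 20 assembly and secretion genes 0 shared these lowest libraries, against 5.56% of all tested genes. These genes were singled out after their values were seen.

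Some pathway genes beyond the members also lay apart by library set. SCARB1, the receptor gene for high density lipoprotein, had 63.5 to 84.6 CPM in the second set and 143 to 172 CPM in the first. ABCA1, the cholesterol efflux transporter gene, had 16.2 to 21.4 against 31.0 to 41.6 CPM, and CLU, the clusterin gene, 49.9 to 60.3 against 107 to 142 CPM. CIDEB, a lipid droplet protein gene of lipoprotein lipidation, had 14.7 to 22.4 against 34.7 to 44.6 CPM. Of the assembly and secretion list 3 genes (15%) lay wholly lower in the second set, against 13.4% of all tested genes. Wholly higher were 4 (20%), SURF4, SEC23A, TMEM41B and PDIA4, against 9.83%. The share wholly lower was 28.6% of the other apolipoproteins, 25% of the plasma remodelling genes, 21.4% of the receptors and 8.33% of the regulators.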
